A study of Apis mellifera with 138 samples.

Results

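The 150 genes described here are the honey bee genes whose levels in the brain and in the abdominal fat body went together most closely from bee to bee. They were chosen by measured values: for each of 8292 genes, the level in each of 65 worker bees was taken as log2(CPM + 1), where CPM is a gene's count scaled to the library's total over bee genes, the mean of each colony and treatment group was subtracted within each tissue, and the 150 genes with the highest Pearson r between the brain and the fat body of the same bee were kept. The 8292 genes are those of 12332 bee genes with a CPM over 1 in at least 30 libraries of each tissue. Because r chose the genes, it is given as a description and carries no test. The comparisons of treatments, colonies and tissues use differences between groups, which the choice had removed.

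The bees were adult workers of 3 colonies, labelled R2, R3 and R42, each headed by a queen inseminated by a single drone. At 3 days of age each bee was fed 1000 pmol of an antagomir in 30% sucrose, either antag-305, a synthetic inhibitor of the microRNA miR-305, or its mismatched control antag-missense, and brain and fat body were collected 48 h later, at 5 days of age. The antag-305 group held 12, 12 and 11 bees of R2, R3 and R42, and the antag-missense group 9, 11 and 10. Each colony was a separate trial, and an effect of one cannot be told from an effect of the other, and 3 families stand for the species. Drones are haploid, so worker sisters from a single drone share the whole paternal genome and differ in what they inherit from the queen. Genotypes were not analysed here.

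The fat body is the insect organ that stores lipid and glycogen, makes most blood proteins, including vitellogenin, and mounts much of the antibacterial response. Fat body and brain are both bathed in hemolymph, which carries hormones between organs, among them juvenile hormone, a product of the corpora allata that speeds the behavioral maturation of workers. A level that differs between bees in the same direction in both organs can be followed in 2 libraries that were prepared from separate tissue of 1 animal.

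Bee gene counts per library lay between 5346264 and 49150105. The summed level of 6 neuronal markers was 3917 to 5052 CPM in the 65 brains and 30.3 to 608 CPM in the fat bodies, and that of 5 fat body markers was 366 to 9817 CPM in the fat bodies and 3.65 to 96.4 CPM in the brains, so each tissue carried its own markers. Muscle markers, 5 genes, summed to 985 to 4221 CPM in the fat bodies. Hypopharyngeal gland markers, 10 genes, summed to 86.7 to 2233 CPM in the brains and 226 to 738 CPM in the fat bodies, and their part in the levels of the 150 genes was not tested. Fewer cells of a type and less RNA per cell cannot be told apart in such bulk samples. The bees' log2 totals did not go together between the tissues (r = -0.05, n = 65 bees). In the brain, 11 of the 150 genes had an r of at least 0.5 in size with the summed fat body markers, against 1264 of all 8292 genes. In the fat body 14 had one with the summed neuronal markers, against 3012. The largest of these were 0.65 for LOC726803 in the brain and 0.97 for E74 in the fat body. The part of the other tissue's RNA in the agreement of the 150 genes was not tested.

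Over all 8292 genes r had a median of 0.05 and ran from -0.57 to 0.95. The 150 genes had r from 0.38 to 0.95 with a median of 0.44. Of them 43 reached 0.5 and 9 reached 0.7, while 1 gene of the 8292 was at or below -0.5 and 17 were at least as far below 0 as the last of the 150 was above it. The last genes inside were LOC725510 at 0.3772, LOC724762 at 0.3764 and LOC551964 at 0.3759, and the first outside were LOC412163 at 0.3759, LOC724686 at 0.3756 and LOC412446 at 0.3756, so the lower end of the choice has no gap.

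**Figure D1:**
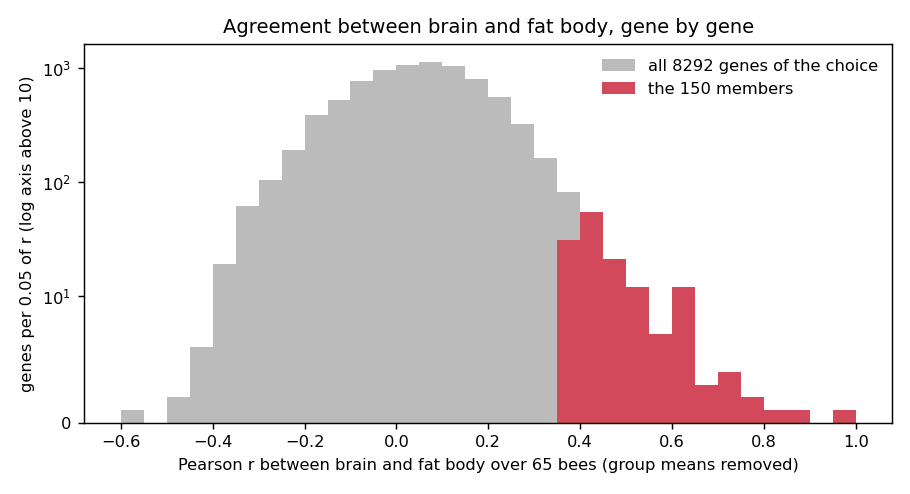
Number of genes (y axis, logarithmic above 10) by Pearson r between brain and fat body over 65 bees (x axis), with all 8292 genes in grey and the 150 chosen genes in red. The grey distribution peaks just above 0, near its median of 0.05, and the red genes form its upper tail, with 1 gene near 0.95.

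The reference annotation gives 9 of the 150 a gene symbol other than a LOC number, and these cover several functions. Kr-h1 is the zinc finger transcription factor that juvenile hormone induces, and E74 is a transcription factor of the ecdysone cascade in Drosophila. MsrA repairs oxidized methionine in proteins and GstS1 is a sigma class glutathione S-transferase. PGRP-S3 belongs to the secreted peptidoglycan recognition proteins, which bind bacterial cell wall, and RpL35 is a protein of the large ribosomal subunit. nanos is a translational repressor of the Drosophila germ line, Cpap3-d a chitin binding cuticle protein of the obstructor type, and A4 is described as an apolipophorin-III-like protein, a hemolymph lipid carrier. For nearly all of the others no description was used here, and they are given by symbol and position in the HAv3.1 assembly, whose linkage groups, LG1 to LG16, are the chromosomes.

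Long non-coding RNAs were common among the 150 genes. They made up 32 of them, or 21.3%, against 4.86% of all 8292 genes. Unplaced scaffolds held 6 of the genes (4% against 0.434%), and the mitochondrial genome held none, against 12 of the 8292 genes. The genes were shorter than the rest, with a median span of 3199.5 bases against 4253.5, and lower, with a median level of 19.2 CPM against 41.3 in the brain and 27.3 against 37.3 in the fat body. They varied more between bees within a group, with a median SD on the log2 scale of 0.316 against 0.252 in the brain and 0.411 against 0.361 in the fat body. The spans of 51 (34%) overlapped another gene, against 38.3% of all. Counts were made over whole gene spans, introns included, and without a stated strand setting, so reads of overlapping or antisense genes cannot be told apart.

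For several of the genes with the highest r the bees fell into 2 classes. LOC107965774, a protein coding gene at LG2:1865901-1895875, had r = 0.95. In colony R2, 11 bees had 0.0840 to 3.26 CPM in the brain and 0.155 to 3.02 CPM in the fat body, and the other 10 bees had 30.8 to 45.1 and 56.4 to 94.3 CPM. In colony R3, 11 bees had at most 1.94 CPM in the brain and 7.81 CPM in the fat body, and 12 bees had at least 29.1 and 58.4 CPM. No bee of R2 or R3 was high in one tissue and low in the other. All 21 bees of R42 were low, with at most 3.36 CPM in the brain and 10.3 CPM in the fat body. Both classes held bees of both treatments, with 6 of 12 antag-305 and 4 of 9 antag-missense bees high in R2, and 5 of 12 and 7 of 11 in R3.

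LOC107964304 and LOC113218898 showed the same pattern, each in a single colony. LOC107964304 (protein coding, LG4:8534113-8535132) was high in 9 bees of R2, at 19.95 to 33.5 CPM in the brain and 28.5 to 46.3 CPM in the fat body, and low in the other 12, at no more than 4.22 and 6.12 CPM. In R3 and R42 no bee exceeded 12.03 CPM in the brain or 7.31 CPM in the fat body. The non-coding LOC113218898 (LG7:3060057-3076925) was high in 10 bees of R3, at 24.5 to 36.5 CPM in the brain and 29.0 to 61.7 CPM in the fat body, and low in 13, at no more than 6.19 and 10.4 CPM. In R2 and R42 the brain did not exceed 5.57 CPM, while the fat body reached 18.5 CPM in R2. Its r was 0.93 in R3, and -0.18 in R2 and -0.14 in R42.

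The same division of bees in both tissues was found for LOC100577999 in R3 and LOC725458 in R42, with smaller steps. LOC100577999, a non-coding gene at LG9:6454385-6456354 whose span overlaps the gene Para, was at 4.24 to 8.18 CPM in the brain and 10.4 to 18.6 CPM in the fat body of 16 bees of R3, and at 1.52 to 2.54 and 3.33 to 6.81 CPM in the other 7. LOC725458 (protein coding, LG1:18587043-18589811) was at 33.0 to 46.8 CPM in the brain and 35.6 to 50.8 CPM in the fat body of 10 bees of R42, and at 19.6 to 27.9 and 4.35 to 12.03 CPM in the other 11. When the bees of a colony were parted at the largest gap between log2 levels in each tissue, with at least 3 bees on each side, these 5 genes were the ones among all 8292 (0.0603%) that gave the same bees in both tissues. This way of parting the bees was set after the values had been seen. The divisions of different genes within a colony were not the same: in R2, 3 bees were high for both LOC107965774 and LOC107964304, 7 for the first alone, 6 for the second alone and 5 for neither, and in R3, 6 bees were high for both LOC107965774 and LOC113218898, 6 and 4 for one alone and 7 for neither.

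**Figure D2:**
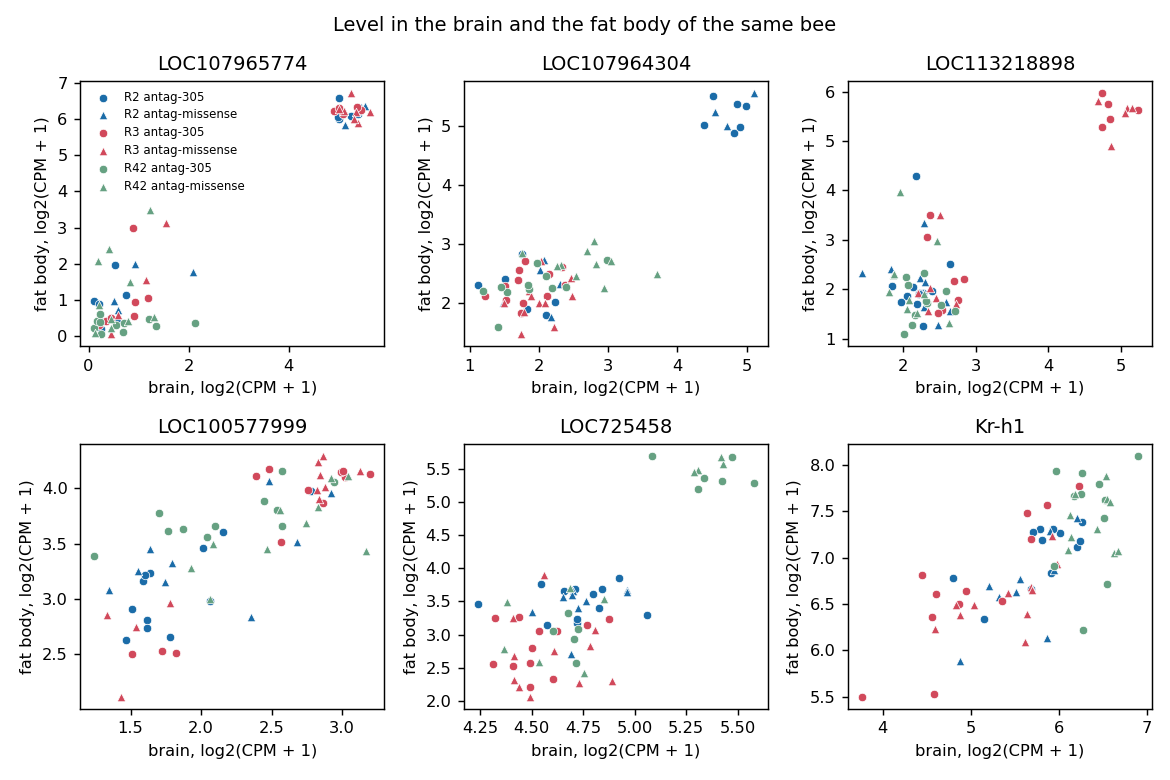
Level in the fat body (y axis) against the level in the brain (x axis) of the same bee, as log2(CPM + 1), for 6 genes, with 1 point per bee (n = 65), colored by colony and shaped by treatment. For LOC107965774, LOC107964304 and LOC113218898 the bees form separate low and high clusters, with 10, 9 and 10 bees high in a single colony and, for LOC107965774, 12 more high in R3; Kr-h1 rises gradually in both tissues.

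Among the remaining genes of the 15 with the highest r, agreement often differed between colonies. LOC113219186, a non-coding gene on LG13, ran from 1.52 to 14.6 CPM in the brain and 3.14 to 16.4 CPM in the fat body in R3 (r = 0.89), and had r = 0.27 in R42. LOC726343 on LG7 ran from 5.11 to 38.2 CPM in the brain of R2 (r = 0.78) and from 4.18 to 37.3 CPM in R42 (r = 0.75), but only from 1.93 to 7.43 CPM in R3 (r = 0.38). The non-coding LOC102654812 on LG6 was lowest in R3, where its brain level ran from 1.20 to 11.1 CPM and r was 0.84. LOC409463 on LG8 had an r of 0.86 in R3 and 0.17 in both other colonies, and LOC113218737 on LG4 had 0.80 in R42, 0.15 in R2 and 0.01 in R3.

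LOC724208 on LG15 (r = 0.68) had a few high bees. The antag-missense bee 24 of R3 had 48.3 CPM in the brain and 1114 CPM in the fat body, bee 22 of that group had 32.5 and 627 CPM, and antag-305 bee 17 of R2 had 28.3 and 564 CPM, against colony medians of 11.1 to 12.9 CPM in the brain and 91.2 to 97.7 CPM in the fat body. These 3 bees ranked highest in both tissues. Without bee 24 of R3, its r was 0.61. LOC412394 on LG7 ran over a narrower range, 82.4 to 185 CPM in the brain and 159 to 382 CPM in the fat body, with r = 0.84 in R42 and 0.17 in R3.

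Several genes that varied together were neighbors. On LG4, the non-coding genes LOC102656302 (1753064-1754463), LOC100578134 (1762785-1767769) and LOC113218557 lay on the same strand, with 8322 and 11451 bases between neighbors. Their levels over bees went together at r = 0.58 to 0.91 in the brain and 0.36 to 0.72 in the fat body. In R42 LOC100578134 ran from 0.767 to 29.1 CPM in the brain and from 2.30 to 35.8 CPM in the fat body, with r = 0.77 between them. LOC113219186 and LOC107965826 on LG13, 22102 bases apart, had r = 0.69 in brains and 0.77 in fat bodies, and LOC726690 and LOC112939925, 2926 bases apart on the same linkage group, had 0.68 and 0.82. A further pair, LOC724951 and LOC724907 on LG10, lay 676 bases apart with r = 0.54 and 0.62. Other neighbors varied together weakly or in opposite directions. LOC724208 and LOC409378 on LG15, 2779 bases apart, had r = 0.11 in brains and 0.26 in fat bodies, LOC113219267 and LOC726650 on the same linkage group had 0.10 and -0.11, LOC102654638 and LOC552451 on LG4 had -0.11 and -0.31, and LOC413489 and LOC409932 on LG3, 10193 bases apart, had -0.21 and -0.44. In all, 30 of the 150 genes (20%) had another of them within 50 kb, against 15.8% of the other 8142 genes, so the 150 were only slightly clustered on the genome.

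Agreement within single colonies varied widely. Of the 150 genes, 141 had r above 0 in R2, 144 in R3 and 144 in R42, and 130 in all 3 colonies, but r was at least 0.5 in all 3 for only 6: LOC100577999, LOC100578361, LOC726651, LOC552254, LOC100576828 and LOC724951, named after their values were seen. For 32 genes r was at least 0.7 in one colony and below 0.2 in another. R42 had more high values than either other colony, with r of at least 0.5 for 81 genes, against 49 in R2 and 56 in R3. Of all genes, 3.29% reached 0.5 in R42, 2.51% in R2 and 1.88% in R3. Without antag-305 bee 14 of R42, a choice made anew over all colonies shared 126 of the 150 genes. That was the fewest for any bee left out, and the next fewest was 134. The 15 genes with the highest r stayed in the choice. The brain of bee 14 had the highest summed fat body markers, 96.4 CPM. The part of this bee in the R42 counts was not tested.

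**Figure D3:**
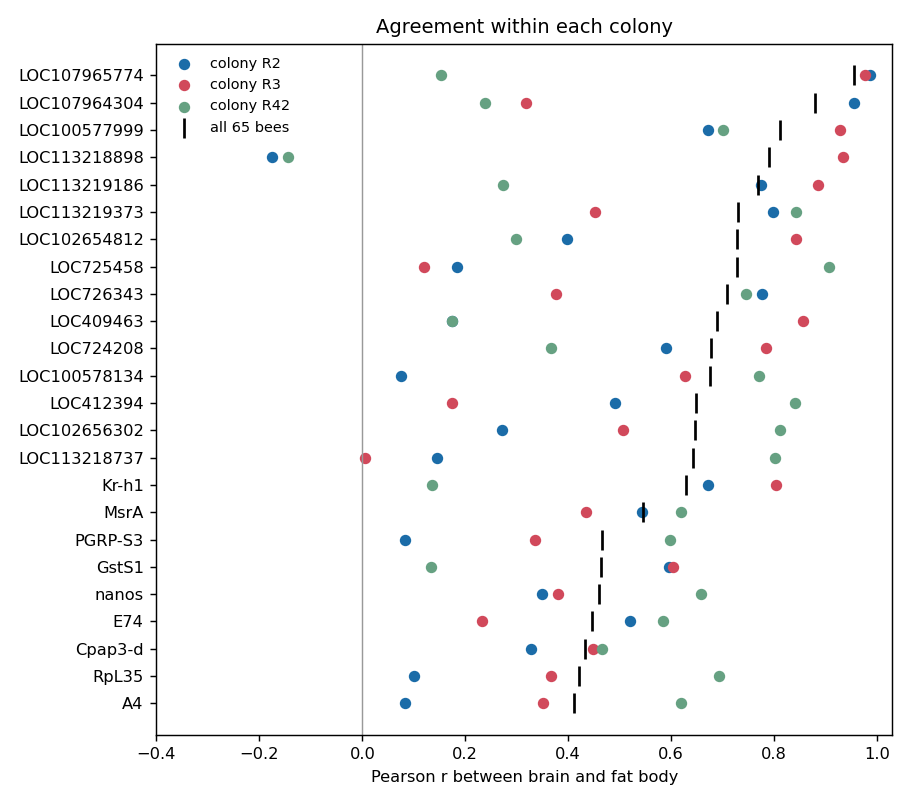
Pearson r between brain and fat body (x axis) for the 15 genes with the highest r and the 9 genes with a symbol, with 1 point per colony (n = 21, 23 and 21 bees in R2, R3 and R42) and a bar for all 65 bees. For LOC113218898 the point of R3 lies at 0.93 and those of R2 and R42 lie below 0, while MsrA has all 3 colonies between 0.43 and 0.62.

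When the 150 genes were chosen anew in 2 colonies and read in the colony left out, agreement was weaker but did not vanish. Genes chosen without R42 had a median r of 0.13 in R42, against 0.01 for all genes, and 22 of them (14.7%) reached 0.5, against 3.29% of all. Without R3 the median in R3 was 0.12, against 0.04, with 17 genes (11.3%) at 0.5 against 1.88%. Without R2 it was 0.19, against 0.13, with 18 genes (12%) against 2.51%. Genes chosen in 1 treatment group of a colony were also used to ask which fat body library was most like each brain in the other group. The bee's own fat body came first for 11 of 11 antag-305 bees of R42 and 7 of 12 of R3, but for 1 of 12 of R2, and for 4 of 9, 6 of 11 and 3 of 10 antag-missense bees of R2, R3 and R42. Picked at random within a group, it would come first for about 1 bee. Other sets of genes were not matched in this way.

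Kr-h1 (LG6:16501760-16510451) was the hormone response gene with the closest agreement, at r = 0.63. Its level ran from 12.6 CPM through a median of 58.6 to 119 CPM in the brain, and from 44.3 through 131 to 273 CPM in the fat body. In R3, bees with 12.6 to 74.2 CPM in the brain had 44.3 to 217 CPM in the fat body (r = 0.80). R2 had r = 0.67, and R42, where all brains were at 60.8 CPM or more, had r = 0.14. Kr-h1 differed between colonies in both tissues, with R42 above R2 by 0.63 on the log2 scale in the brain (adjusted p = 6.98e-09, edgeR) and by 0.58 in the fat body (adjusted p = 2.39e-05). E74 (r = 0.45) varied little in the brain, 98.3 to 144 CPM, and from 14.6 to 184 CPM in the fat body. Its fat body level had an r of 0.97 with the summed neuronal markers in the fat body and of -0.59 with the log2 total of the library, and the part of neuronal tissue and depth in it was not tested. Of 10 measured genes of juvenile hormone and ecdysone response, a list drawn up after the members were known, these 2 were among the 150, and the list had a median r of 0.11. The others had r from -0.34 for Jhe to 0.20 for E75.

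PGRP-S3 was the only one of 7 measured immune genes among the 150 and had r = 0.47. Its brain level ran from 1.96 through 12.1 to 68.0 CPM and its fat body level from 251 through 1126 to 2071 CPM. GstS1 was the only one of 6 detoxification genes among the 150. The 6 had a median r of -0.11, and the other 5 had r from -0.26 to -0.03. GstS1 had r = 0.46 and similar levels in the tissues, 102 to 318 CPM in the brain and 54.9 to 268 CPM in the fat body, with r = 0.60 in R2 and in R3 and 0.13 in R42. MsrA had r = 0.55, at 40.7 to 174 CPM in the brain and 34.5 to 189 CPM in the fat body. RpL35 was the only one of 7 ribosomal protein genes named by symbol, at r = 0.42, and the 7 had a median r of 0.14. None of 6 chaperone, 2 clock, 7 odorant binding or chemosensory and 11 mitochondrial genes was among the 150. The medians of these lists lay between 0.00 and 0.18, beside 0.05 for all genes. The 5 muscle markers had a median r of -0.37.

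Most of the 150 genes did not vary together with another of them. Joined where r was at least 0.6 in size in both tissues, 41 of them fell into 8 groups, of which 2 had more than 2 genes. The largest had 23 genes, with LOC551391, LOC107965827, LOC552161, LOC413176 and LOC107964283 the highest by r between tissues, and it held RpL35. Genes could be joined through others, and only 37 of its 253 pairs reached 0.6 in size in both tissues. Among the 253 pairs r was above 0 for 194 by brain levels and 192 by fat body levels. LOC551391, LOC409932 and LOC409643 varied together and against most of the group. LOC551391 ran from 310 to 516 CPM in the brain and from 22.8 to 117 CPM in the fat body, and its r with RpL35 was -0.72 and -0.66. Single genes of this group had r of up to 0.54 in size with the log2 total of the brain library, up to 0.52 with that of the fat body library and up to 0.58 with the summed fat body markers in the brain. The part of depth, tissue makeup and single bees in this group was not tested. The second group had 6 genes, LOC410071, LOC409739, LOC725465, LOC411662, LOC411508 and LOC552451, spread over 4 linkage groups, and all of its 15 pairs had r above 0, from 0.41 to 0.70 in the brain and from 0.55 to 0.84 in the fat body. Of these 15 pairs, 5 reached 0.6 in both tissues. LOC410071 ran from 240 to 445 CPM in the brain and from 125 to 363 CPM in the fat body. The part of single bees in the second group was not tested either.

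Colony was the comparison in which the share called among the 150 genes lay furthest above that of all genes. By the quasi-likelihood test of edgeR, with p adjusted over all genes by the Benjamini-Hochberg method, 92 of the 150 (61.3%) differed between colonies in the brain at an adjusted p below 0.05, while 33.6% of the 9118 genes tested did. In the fat body 101 (67.3%) did, while 45.4% of 8844 genes did. The 150 genes also varied more within groups than others, and the part of this in the counts was not tested. The smallest p in the brain was that of LOC551434, on an unplaced scaffold. Its median brain level was 26.97 CPM in R3, with no bee above 38.9, against 49.2 CPM in R2 and 45.7 CPM in R42, a difference of R3 from R2 of -0.82 on the log2 scale (adjusted p = 4.43e-19, edgeR). The fat body difference was -0.35 (adjusted p = 0.00612, edgeR).

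LOC102656558, a non-coding gene on LG1 whose span overlaps LOC409546, was ordered alike in both tissues. Its median was 5.03 CPM in R3, 3.09 in R2 and 1.80 in R42 in the brain, and 14.8, 7.14 and 5.50 CPM in the fat body (adjusted p = 4.29e-13 and 2.40e-11, edgeR). LOC113218737 was higher in R2 than in R3 in both tissues, with brain levels of 9.88 to 26.1 CPM in R2 and 2.14 to 6.16 CPM in R3, which do not overlap, and fat body levels of 4.86 to 9.28 and 0.811 to 2.85 CPM, which do not overlap either (adjusted p = 5.85e-11 and 1.52e-11, edgeR). LOC113219373, a non-coding gene on an unplaced scaffold, differed in the brain, where its median was 1.49 CPM in R2 and 6.30 CPM in R3 (adjusted p = 9.55e-13, edgeR), and did not pass in the fat body, at 1.68 and 1.70 CPM (adjusted p = 0.0855, edgeR). LOC100576161, a non-coding gene on LG9, had fat body medians of 1.58, 4.86 and 11.8 CPM in R2, R3 and R42 (adjusted p = 3.78e-12, edgeR), and brain medians of 2.81, 2.47 and 3.60 CPM (adjusted p = 0.0135, edgeR).

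Nearly all genes differed in level between brain and fat body, and the 150 were no exception. With each bee as a block, 141 of the 150 (94%) differed, and 93.5% of 8282 genes did. Of the 150, 58 (38.7%) were higher in the brain and 83 (55.3%) higher in the fat body, beside 46.1% and 47.5% of all genes. A difference of more than 1 on the log2 scale was found for 86 (57.3%), beside 55.6%. Of the 32 non-coding genes, 20 were called higher in brain and 10 higher in fat body. The same shares over all non-coding genes were not counted, so this is not read as a trait of the 150.

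A4 had the largest difference. Its median was 2.13 CPM in the brain and 5749 CPM in the fat body, and the fitted difference was -11.15 on the log2 scale (SE 0.23, adjusted p = 1.47e-52, edgeR). LOC726803 (-9.97), LOC724951 (-7.55) and PGRP-S3 (-6.37) followed. In the brain, A4 and LOC726803 had an r of 0.61 and 0.65 with the summed fat body markers, and LOC724951 0.40 and PGRP-S3 -0.22. The part of fat body RNA in these brain levels was not tested. The gene with the largest difference in the other direction was LOC113219267, a non-coding gene at LG15:6563987-6566483, with a median of 67.9 CPM in the brain and 2.51 CPM in the fat body (difference 4.77, SE 0.08, adjusted p = 6.61e-58, edgeR). The 9 genes not called included Cpap3-d, at 8.26 CPM in the brain and 10.03 CPM in the fat body (difference -0.19, SE 0.14, adjusted p = 0.213, edgeR), and LOC113218898 (0.19, SE 0.11, adjusted p = 0.111, edgeR).

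**Figure D4:**
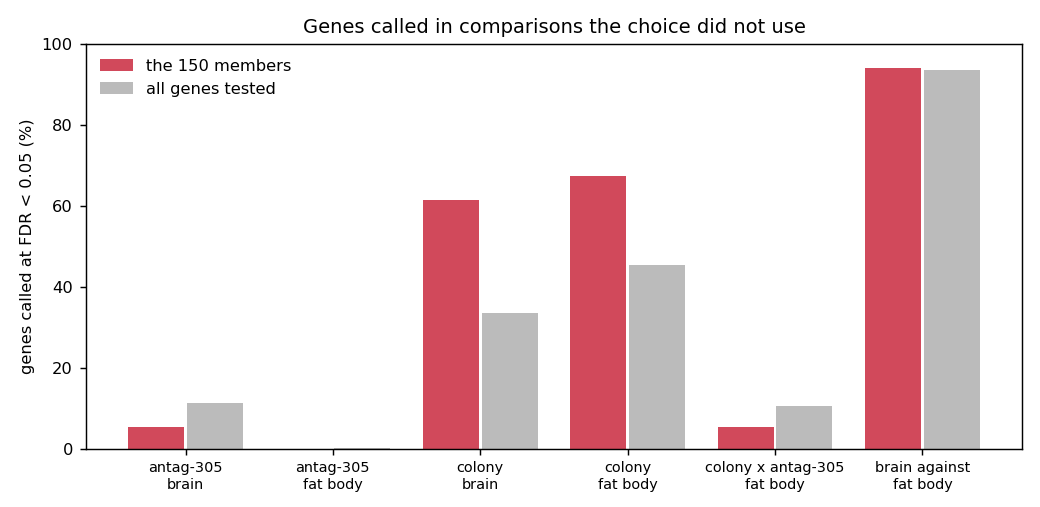
Share of genes called at an adjusted p below 0.05 (y axis, percent) for the 150 genes in red and for all genes tested in grey, in 6 comparisons. The colony bars of the 150 genes, 61.3% and 67.3%, stand above the grey bars at 33.6% and 45.4%, while the bars for brain against fat body, 94% and 93.5%, are nearly level.

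Few of the 150 genes were called for antag-305. The 150 were lower in level and varied more within groups than all genes, and the part of this in the counts was not tested. In the brain 8 (5.33%) were called, beside 11.3% of 9118 genes: 2 were higher with antag-305 (1.33%, beside 5.47% of all genes) and 6 were lower (4%, beside 5.87%). The median difference of the 150 was -0.04 on the log2 scale and that of all genes 0.00. No call was left without colony R3, where 10 of all 9118 genes (0.11%) were called. The counts were 6 without R2, beside 8.73% of all genes, and 4 without R42, beside 5.46%.

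LOC724367, a protein coding gene at LG2:4828926-4829893, had the smallest p of the 8. In R3 its brain level was 45.1 to 448 CPM with a median of 337 in antag-305 bees and 38.4 to 176 CPM with a median of 73.8 in antag-missense bees. The medians were 53.8 and 24.7 CPM in R2 and 33.1 and 29.5 CPM in R42, and the groups overlapped in each colony. After TMM normalization the mean was 141 ± 147 CPM (SD, n = 35) with antag-305 and 54.0 ± 36.6 CPM (SD, n = 32) with antag-missense, and 22 of the 35 antag-305 brains were above the antag-missense median. The log2 difference was 1.05 (SE 0.25, adjusted p = 0.00401, edgeR). In the fat body it was 0.10 (SE 0.13, adjusted p = 0.817, edgeR).

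A4 was the other gene called higher, at 8.64 ± 29.1 CPM (SD, n = 35) with antag-305 and 2.73 ± 1.83 CPM (SD, n = 32) with antag-missense, after TMM normalization, a log2 difference of 1.22 (SE 0.41, adjusted p = 0.0419, edgeR). It rested on 1 library. The brain of antag-305 bee 14 of R42 had 174 CPM on this scale, and the next brain had 24.2 CPM. Without it the difference was 0.49 (SE 0.30, adjusted p = 0.240, edgeR). That brain also had the highest summed fat body markers of the 65 brains, 96.4 CPM with the next at 55.2 CPM, and its fat body had the highest A4 level, 14935 CPM. A4's r between tissues fell from 0.41 to 0.23 without this bee. The part of fat body tissue in that brain was not tested. The medians of the R42 brains were 3.76 CPM with antag-305 and 3.88 CPM with antag-missense.

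**Figure D5:**
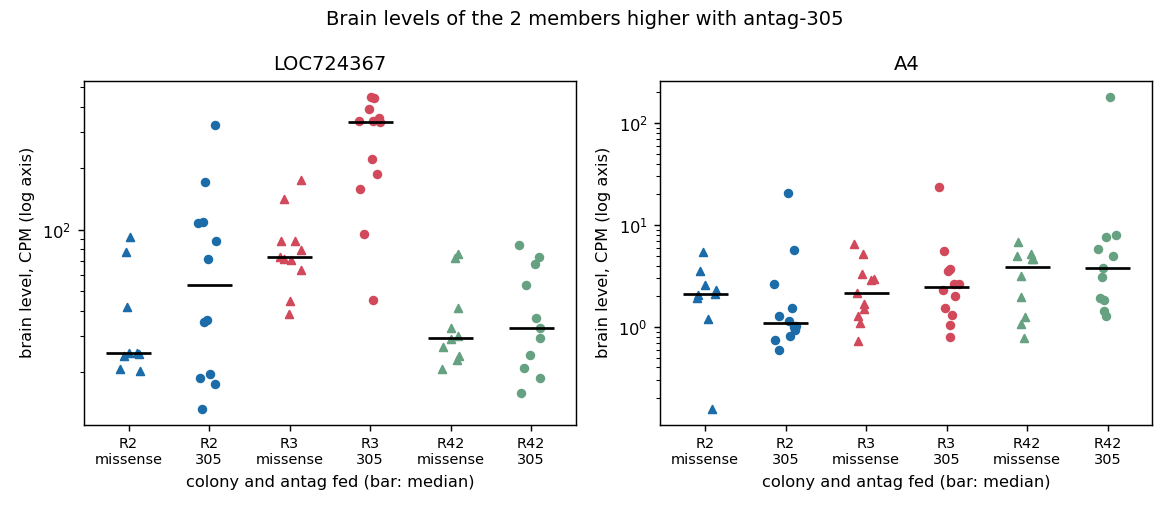
Brain level (y axis, CPM on a logarithmic axis) of LOC724367 and A4 in each bee, by colony and treatment (x axis), with a bar at the median, for the 65 bees with both libraries. The antag-305 bees of R3 sit around a median of 337 CPM for LOC724367 against 73.8 CPM in antag-missense bees, and a single antag-305 bee of R42 stands at 181.8 CPM for A4.

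The genes called lower changed by less. LOC113219373 was at 3.79 ± 2.84 CPM (SD, n = 35) with antag-305 and 5.63 ± 4.25 CPM (SD, n = 32) with antag-missense in the brain (log2 difference -0.61, SE 0.18, adjusted p = 0.0251, edgeR), lower in each colony. LOC113218833, described as a homolog of transmembrane protein 234, was lower by 0.51 (-0.51, SE 0.16, adjusted p = 0.0351, edgeR), with medians of 5.08 and 7.47 CPM in R2. LOC100576760 (-0.20), LOC100577640 (-0.29) and LOC724781 (-0.14) were also called, and LOC724781 was higher by 0.08 in R42. Without the single brain library of their highest level, LOC113218833, LOC100577640 and LOC724781 were no longer called (adjusted p = 0.0843, 0.0563 and 0.0860, edgeR). For each of them that library was an antag-missense one, so leaving it out could only shrink the difference. The lost calls therefore do not show that a difference rested on 1 library. Over all alternatives, this leaving out included, LOC113218833, LOC100577640 and LOC724781 kept the call in 4, 7 and 5 of 11. LOC113219373 kept it in 5 of 10 and LOC100576760 in 9 of 11. For LOC724781 the highest library had 42.8 CPM and the next 41.6 CPM, after TMM normalization.

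In the fat body none of the 150 was called for antag-305 by edgeR or by DESeq2, beside 0.0678% of 8844 genes (6 genes) by edgeR. An unadjusted p below 0.05 by edgeR was found for 7 (4.67%), beside 9.01% of all genes. Kr-h1 was not called in the brain either (log2 difference -0.02, SE 0.11, adjusted p = 0.897, edgeR).

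The antag-305 difference was tested between tissues and between colonies. Only LOC113219267 was called for a tissue difference (brain minus fat body 0.51, adjusted p = 0.0475, edgeR), beside 0.628% of 8282 genes. In the brain none of the 150 was called for a colony difference by edgeR (no other tool was run), beside 0.428% of all. At an unadjusted p below 0.05 by edgeR there were 21 (14%), beside 5.64% of all genes. In the fat body 8 (5.33%) were called, beside 10.5%: LOC113219267, LOC724208, LOC409801, LOC494509, LOC725696, LOC100578030, LOC102656332 and E74. In R3 the fat body level of LOC113219267 was 0.879 to 3.18 CPM with antag-305 and 2.81 to 7.13 CPM with antag-missense, so that the groups overlapped only between 2.81 and 3.18 CPM, while the medians, in the same order, were 2.58 and 3.097 CPM in R2 and 2.44 and 1.90 CPM in R42 (adjusted p = 0.00374, edgeR). LOC724208 had fat body medians, with antag-305 and antag-missense, of 84.5 and 204 CPM in R3, 102 and 97.4 CPM in R2 and 91.9 and 111 CPM in R42 (adjusted p = 0.0141, edgeR), and its highest antag-missense bees are the R3 bees described above.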

How the data were processed

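The authors sequenced RNA from the brain and abdominal fat body of single workers with a stranded library kit. Per the labels and the paper's methods, adapters were trimmed, reads were aligned to the HAv3.1 genome with STAR 2.7.6a and counted with featureCounts of Subread 2.0.0. The deposited values are raw counts per gene span, 1 file per library, with 5 virus genomes. The strand setting and the treatment of reads with several alignments are not given in the sources used here. Of 12332 bee genes, 12331 were matched to the reference annotation by position.

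Of 138 libraries, the 132 that the authors kept were tested (6 were removed for viral load). The paper's limit was 0.05%, but by the counts used here a tested antag-missense brain had 0.373% viral counts. The highest share in antag-305 brains was 0.0224%. The part of viral load in the antag-305 calls was not tested. The choice used the 65 bees whose libraries both had at most 0.5% viral counts, which are the bees kept in both tissues. The genes and lists were chosen with earlier results of these data known. Lists were made by symbol, and those of gut, zinc finger and transposon-like genes, planned by description, could not be made.

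The tests were run with edgeR 4.0.16 under R 4.3.3, on genes whose CPM was over 1 in 32 or more brain and 30 or more fat body libraries, with TMM factors, the quasi-likelihood test and colony and treatment in the model, and called at an adjusted p under 0.05. Brain and fat body were compared with each bee as a block. Levels given per bee are CPM of bee gene totals, and means beside antag-305 tests are TMM-normalized. Alternatives used DESeq2 1.42.0, other filters, all libraries, other models and each colony left out. P-values measure the spread between bees of these 3 colonies, and the depths limit precision for low genes.

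Named genes are the 15 with the highest r, up to 5 called for antag-305 and 3 for colony per tissue by p, up to 5 of each larger group that varies together, up to 2 per list and the 3 on each side of the limit. No gene had bees at 0 counts in both tissues. The other symbols, the other antag-305 and interaction calls and the tissue extremes were named after their values were seen. The values of 1 of the genes called for antag-305 in the brain are not reported here.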

Additional observations from a re-analysis of the deposited data

Results flagged for a closer look

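The antag-305 difference of LOC113219267 differed between tissues (0.51 on the log2 scale, brain minus fat body). Differences between colonies in the fat body passed for LOC113219267 (adjusted p = 0.00374), LOC724208 (0.0141), LOC409801 (0.0141), LOC494509 (0.0152), LOC725696 (0.0183), LOC100578030 (0.0221), LOC102656332 (0.0261) and E74 (0.0399), all from edgeR's test of the colony by treatment interaction. LOC409801 reached 2582 CPM in the fat body of antag-missense bee 24 of R3, beside a median of 96.8 CPM in that group, and LOC494509 reached 3038 CPM in the same bee beside 219 CPM.

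Single bees stood apart in 11 of 160 groups of 9 or 10 antag-missense bees by Dixon's test, a test that flags about 1 group in 20 by chance. Bee 17 of R2 was highest in 4 of them: LOC411508 in the brain (61.5 CPM) and in the fat body (55.5 CPM), and LOC410071 (359.5 CPM) and LOC551964 (166 CPM) in the fat body. The others were LOC113219373 at 4.50 CPM and LOC725510 at 3.26 CPM in brains of R2, LOC725458 at 5.53 CPM in a fat body of R2, LOC724208 at 7.19 CPM and LOC725465 at 11.4 CPM in brains of R42, and LOC102656558 at 11.1 CPM and LOC410071 at 124.5 CPM in fat bodies of R42.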

How the results depend on the processing

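The choice of 150 genes shared 113 to 144 genes with itself under other normalization, pseudocount, bees or measure of agreement, or without a filter. With a CPM over 1 asked of every library, only 112 of the 150 could enter, and all 112 were shared. The bees kept by the authors in both tissues are the 65 of the choice, so that setting could only give the same 150. The choice shared 100 without R2, 91 without R3, 75 without R42, 86 with antag-305 bees alone and 84 with antag-missense bees alone. Leaving out 1 bee at a time, which was added after the data were seen, left 126 to 148 genes shared. The number of genes called for antag-305 in the brain, 8 as reported, was 5 with no colony term and 4 without R42. Of all genes, 9.36% and 5.46% were called there. The count was 2 with bee numbers as a replicate block, beside 4.95% of all genes. Under the other planned settings that kept R3 the count was 6 to 9, beside 8.62% to 14.7%. Without R3 it was 0, with 15 of the 150 at an unadjusted p below 0.05 by edgeR, beside 1025 of 9118 genes. These counts can include genes outside the 8. Without the brain of antag-305 bee 14 of R42, also added later, 10 were called, beside 1124 of 9118 genes. Bee numbers recur in both treatments, but same-numbered bees deviated together in 11 of 28 brain pairs (r over 0.1) and 8 of 26 fat body pairs, so the numbers were not taken as pairs. With them as a replicate block, the brain count was 2 and that of the fat body 0, where 0 of all 8844 genes were called. In the fat body 1 gene was called without R42, beside 0.972% of all genes. The antag-305 tissue difference was called for 0 of the 150 with no replicate block, with all bees, without R2 and without R3. It was called for 2 without R42. Of all genes, 1.23%, 0.543%, 0.109%, 0% and 1.13% were called, in that order. No alternative reversed the sign of any of the 8 brain differences, and 33 of 86 alternative values of single genes lost the call. Joining at r of 0.5 gave 71 genes in groups, the largest of 58, and at 0.7 gave 14, the largest of 4. Within 10 kb 12 genes had another of the 150, and within 200 kb 56. The causes were not tested. Counts for colony stayed between 88 and 96 of 150 in the brain and between 97 and 103 of 150 in the fat body. With at least 10 counts in every library, they were 77 of 130 and 81 of 126 tested. Of all genes, 30.6% to 35.6% were called in the brain and 36.2% to 48% in the fat body under these settings. Low genes, such as LOC725510 with 18 bees under 1 CPM in the brain, limit r at these depths.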
